A study of Caenorhabditis elegans with 33 samples.

Results

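The C-type lectin genes of Caenorhabditis elegans (symbols that start with clec- followed by a number) were taken from a table of gene expression in whole hermaphrodite larvae at the L3 stage. The rule found 237 protein-coding genes among the 21975 genes in the table, named by the WBcel235 annotation, and it used no measured value. All 33 libraries were used, with 3 replicates in each of 11 groups.

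C-type lectin proteins carry a C-type lectin-like domain, a compact fold held by disulfide bridges that binds sugars with the help of calcium in the classical members of the family. Nematodes hold a much enlarged set of these genes, most of them coding for secreted proteins, and many are transcribed in the intestine. Different sets of clec genes respond to different bacteria and fungi, in part through the p38 kinase PMK-1 pathway, and a smaller number have been shown to affect survival on a pathogen. The dosage compensation complex studied in these strains acts on the X chromosome, where few clec genes lie.

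The strains were wild type N2 (labelled WT), the chromodomain mutant cec-4, which lacks a nuclear envelope protein that binds methylated histone H3, the dosage compensation mutant dpy-21, the double mutant dpy-21; cec-4, and 3 strains whose condensin subunit DPY-27 carried a degron tag: dpy-27::AID, TIR-1; dpy-27::AID and TIR-1; dpy-27::AID; cec-4. TIR-1 in these labels is the plant F-box protein TIR1, expressed from the broadly active eft-3 promoter, and not the worm gene tir-1. Auxin brings the tagged protein to TIR1 for degradation. Larvae of every group were placed on high-growth plates with the E. coli strain NA22 as L1 and collected 24 hours later, either without auxin (all strains) or on 4 mM auxin (cec-4 and the 3 tagged strains). Each mutant or tagged group was 1 strain. The labels do not say that replicates came from separate cultures, so p-values measure the spread between these libraries, which may be technical. Animals were pooled and whole, so that fewer cells of a type and less RNA per cell cannot be told apart.

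FPKM (fragments per kilobase of transcript, scaled to the size of the library, as deposited) summed to 2554942 in WT replicate 1 and 2021791 in WT replicate 2, against 1412883 to 1671480 in the other 31 libraries. An X:A score (the median deviation of X-linked genes from their own means on the log2 scale, less that of autosomal genes) was 0.43 in the library labelled dpy-27::AID, auxin replicate 3, within the range of the auxin-treated TIR-1; dpy-27::AID libraries (0.39 to 0.47), whereas the other replicates of its group were at -0.34 and -0.37. The cec-4 transcript was listed above 0 in 4 of the 15 libraries labelled with a cec-4 mutation, at 3.46 to 8.99 FPKM, and at 0 in 2 of the 18 others, so those libraries are named here by their labels. Of 15 intestinal marker genes 14 were measured at a mean of at least 1 FPKM, with ifb-2 listed at 0 in 31 of 33 libraries. Whole fragments were not recovered from the FPKM values, so the depth behind a value is unknown. An exact 0 can be a failed estimate, since 188 of the 5592 genes with a median of at least 20 FPKM were listed at 0 in some library, among them 5 of 34 clec genes.

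A few clec genes made up most of the family's transcripts. Per length, the highest level was that of clec-63 (WBGene00009394, chromosome II, 12895638 to 12897446), with a mean of 1538 FPKM over the 33 libraries, a lowest value of 821 and a highest of 2881. It alone held 35.1% of the summed mean FPKM of the family. Next came clec-50 (chromosome V, mean 424 FPKM), clec-1 (V, 303 FPKM), clec-150 (III, 218 FPKM), clec-265 (X, 153 FPKM), clec-41 (V, 121 FPKM), clec-65 (II, 108 FPKM), clec-173 (IV, 88.4 FPKM), clec-48 (V, 76.9 FPKM) and clec-72 (IV, 73.7 FPKM). These 10 genes together held 70.9% of the sum. Neighbours in that order overlapped in their ranges over libraries, except that the lowest clec-63 value lay above the highest value of clec-50, 805 FPKM. Of these genes clec-41 has been linked, in C. elegans, to defence against Bacillus thuringiensis.

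**Figure D1:**
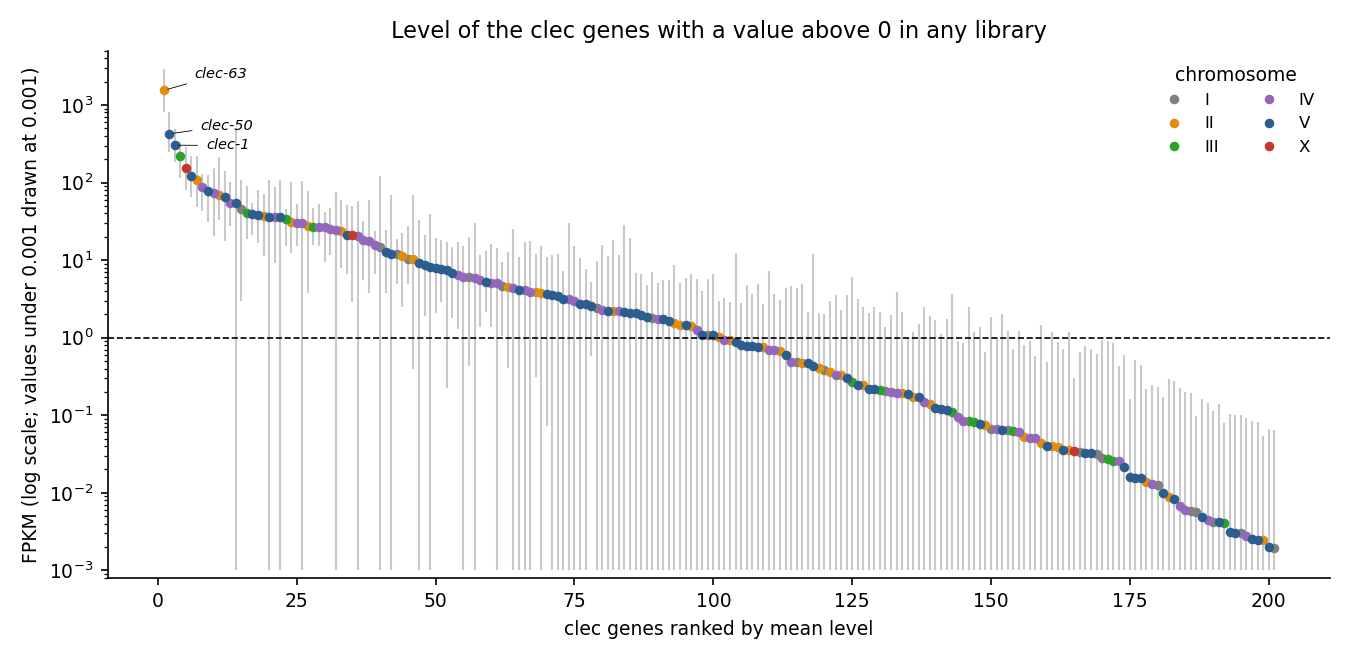
Mean FPKM (points, log scale) of the 201 clec genes with a value above 0 in any library, ranked by level and coloured by chromosome, with grey bars from the lowest to the highest of 33 libraries. The dashed line marks a mean of 1 FPKM, above which 101 genes lie, and clec-63 stands above all others.

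At the other end, 36 of the 237 genes were listed at 0 in all 33 libraries and 148 in some, which leaves 53 above 0 in every library. A mean of at least 1 FPKM was reached by 101 clec genes (42.6%), against 60.6% of all genes, and only these were tested below. Of the 101, 7 had a mean of at least 100 FPKM, 39 a mean of 10 to 100 FPKM and 55 a mean of 1 to 10 FPKM. The gene just above the limit was clec-143 (mean 1.01 FPKM), and the one just below it was clec-167 (mean 0.932 FPKM). In a single library, 88 to 136 clec genes were above 0 and 74 to 106 reached 1 FPKM. The summed FPKM of the family ran from 2970.3 in TIR-1; dpy-27::AID, auxin replicate 1 to 6922 in WT replicate 1, with a median of 4343.

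Members were unevenly placed on the chromosomes. Chromosome V held 84 of them (35.4%, against 26.4% of all genes in the table), chromosome IV 53, chromosome II 48, chromosome I 35, chromosome III 14 and the X only 3 (1.27%, against 13.2% of all genes). Most had a close neighbour of their own family. With starts at most 20000 bases apart counted as neighbours, 157 members (66.2%) fell into 46 runs of 2 to 13 genes, and 8 runs held at least 3 tested genes. The run with the highest level was clec-62 to clec-66 on chromosome II (12893062 to 12906644), where all 5 genes were tested, at means of 37.05 FPKM (clec-62), 1538 FPKM (clec-63), 11.1 FPKM (clec-64), 108 FPKM (clec-65) and 30.6 FPKM (clec-66). The longest runs had lower levels: 13 genes from clec-40 to clec-33 on chromosome V (16839121 to 16869840; 8 tested) lay between 0.186 and 7.58 FPKM, and 12 genes from clec-67 to clec-78 on chromosome IV (3922165 to 4014235; 7 tested) lay between 0.0254 and 73.7 FPKM, with clec-72 the highest.

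The levels of neighbours were compared over the libraries. As a description over 33 libraries, which share groups and scaling, the median Pearson correlation of log2(FPKM + 0.1) was 0.16 over the 96 pairs of tested genes within a run and 0.07 over all 5050 pairs. Among genes at a mean of at least 10 FPKM it was 0.29 over 21 pairs within a run and 0.12 over 1014 other pairs. The run clec-62 to clec-66 had a median of 0.52 over its 10 pairs (range 0.23 to 0.85), the highest of the 8 runs, while that of clec-67 to clec-78 was -0.08. The median was 0.33 in the run from clec-143 to clec-61 on chromosome II (10468202 to 10490537), which holds the infection-responsive gene clec-60. It was 0.15 in the run from clec-165 to clec-170 and 0.01 in that from clec-80 to clec-85, both on chromosome IV. On chromosome V it was 0.17 from clec-57 to clec-55, 0.17 from clec-40 to clec-33 and 0.10 from clec-245 to clec-42. The closest pairs were clec-10 with clec-72 (0.85), which lie on chromosomes II and IV, and the neighbours clec-65 with clec-66 (0.85).

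Some members cannot be told apart from near copies or overlapping genes. In the annotation clec-15, clec-209 and clec-249 each name 2 genes, of which 1 is in the table, so that their values may hold fragments of both copies. RefSeq (WBcel235) names 25 clec pseudogenes, which are not members, and 24 of them were matched by coordinates, with 1 at a mean of at least 1 FPKM (clec-14, 1.49 FPKM). Of the members named here, clec-78 spans 7 other genes on the opposite strand, of which W02C12.2 had the highest mean (18.5 FPKM), and clec-82, on the same strand, and clec-83, on the opposite one, both overlap Y54G2A.7 (mean 21.1 FPKM). The X-linked clec-86 overlaps alh-10 (mean 46.8 FPKM) on the opposite strand, and clec-85 overlaps Y54G2A.40 on its own strand and Y54G2A.49 on the other (means 2.51 and 2.49 FPKM). Further, clec-143 overlaps tnc-2 (mean 134 FPKM) on the opposite strand, and clec-84 overlaps Y54G2A.15, which was listed at 0. The kit was directional, but whether the quantification used strand is not given in the sources used here.

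Replicates of 1 group differed widely for many clec genes. The pooled within-group SD on the log2 scale had a median of 1.07 over the 101 tested genes and 0.60 over all 13309 tested genes. The gap was smaller at like levels: at a mean of 10 FPKM or more the median SD was 0.50 for 46 clec genes and 0.38 for all genes, and at 1 to 10 FPKM it was 1.56 for clec genes and 1.47 for all genes. The steadiest members were clec-63 (SD 0.28), clec-149 (0.30), clec-65 (0.30), clec-50 (0.30) and clec-56 (0.34). The most variable were clec-84 (2.99), clec-199 (2.71), clec-196 (2.69), clec-82 (2.67) and clec-180 (2.49), all of them listed at 0 in some libraries. The last lies 1951 bases upstream of cec-4 on chromosome IV, and its values overlapped between the 15 libraries labelled with a cec-4 mutation (0 to 92.5 FPKM, median 22.4) and the 18 others (0 to 103 FPKM, median 28.1).

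**Figure D2:**
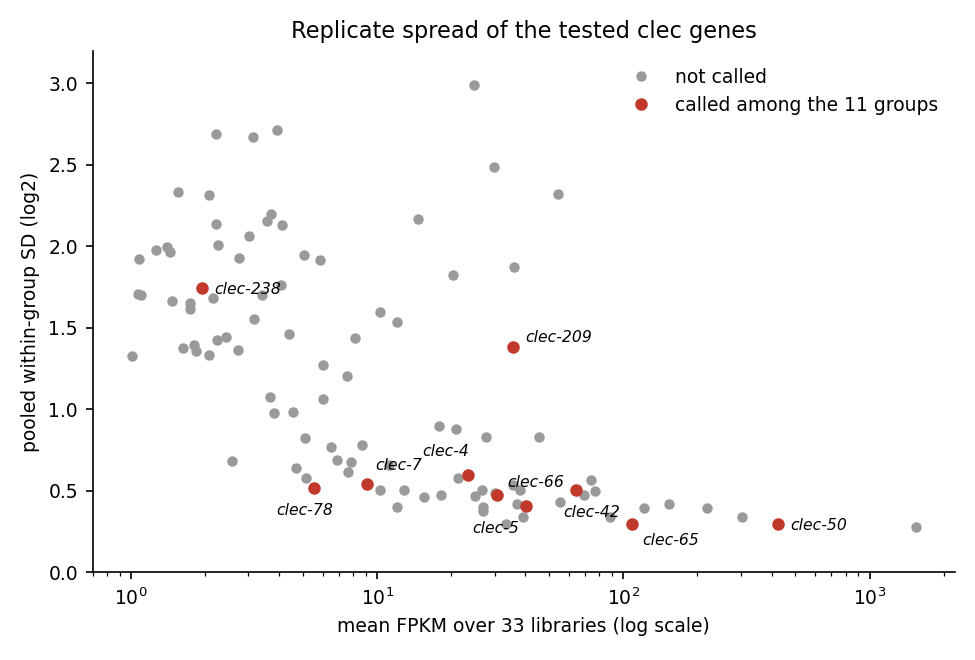
Pooled within-group SD of log2(FPKM + 0.1) against the mean FPKM (log scale) of the 101 tested clec genes. Red points are the 10 genes that differed among the 11 groups at an adjusted p under 0.05, and the 5 largest SDs belong to genes with means from 2.21 FPKM (clec-196) to 29.8 FPKM (clec-180).

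Over all 11 groups, 10 of the 101 tested clec genes differed by limma's F test at an adjusted p under 0.05, against 10.2% of all tested genes, so the count was near the background. They were clec-7 (adjusted p = 3.34e-13), clec-65 (0.00586), clec-209 (0.00643), clec-5 (0.00877), clec-42 (0.0127), clec-66 (0.0278), clec-4 (0.0332), clec-238 (0.0367), clec-50 (0.0390) and clec-78 (0.0390). At an unadjusted p under 0.05 there were 29 (28.7%, against 25.5% of all tested genes). Without WT replicate 3 there were 20 calls, where 17.3% of all tested genes were called, and there were 6, where 7.8% to 8.45% of all tested genes were called, without any 1 of cec-4, auxin replicate 2 or 3, dpy-21; cec-4 replicate 1 or 3, dpy-27::AID, auxin replicate 2 and TIR-1; dpy-27::AID, auxin replicate 2. The next in order, clec-218 (0.0569), clec-62 (0.0744), clec-174 (0.0800) and clec-63 (0.0822), did not pass. Of these, clec-42, which like clec-41 has been linked to defence against Bacillus thuringiensis, passed only this F test and none of the paired comparisons: its group means ran from 26.5 ± 13.9 FPKM (SD, n = 3) in cec-4, auxin to 105 ± 35.6 FPKM (SD, n = 3) in TIR-1; dpy-27::AID; cec-4 on auxin. The values of clec-174 were highest in dpy-21; cec-4, at 22.03, 17.5 and 25.5 FPKM, above every other library, which reached at most 9.61 FPKM.

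The clearest pattern in the family was that of clec-7 (WBGene00017364, chromosome V, 7328392 to 7330002, forward strand), a member for which no role is given here. It was listed at 0 in all 12 libraries of cec-4 and of TIR-1; dpy-27::AID; cec-4, with or without auxin, and above 0 in all 21 others. Its values were 11.8, 16.9 and 26.1 FPKM in WT, 12.7, 11.7 and 7.92 FPKM in dpy-21, and 8.53, 13.7 and 16.9 FPKM in the double mutant dpy-21; cec-4. In the tagged strains with wild type cec-4 the values were 2.598, 6.25 and 20.7 FPKM (dpy-27::AID, no auxin), 11.6, 7.79 and 11.2 FPKM (dpy-27::AID, auxin), 32.6, 24.2 and 17.2 FPKM (TIR-1; dpy-27::AID, no auxin) and 12.9, 12.7 and 13.9 FPKM (TIR-1; dpy-27::AID, auxin). The double mutant, which also carries the cec-4 mutation, thus lay within the range of the strains without it.

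**Figure D3:**
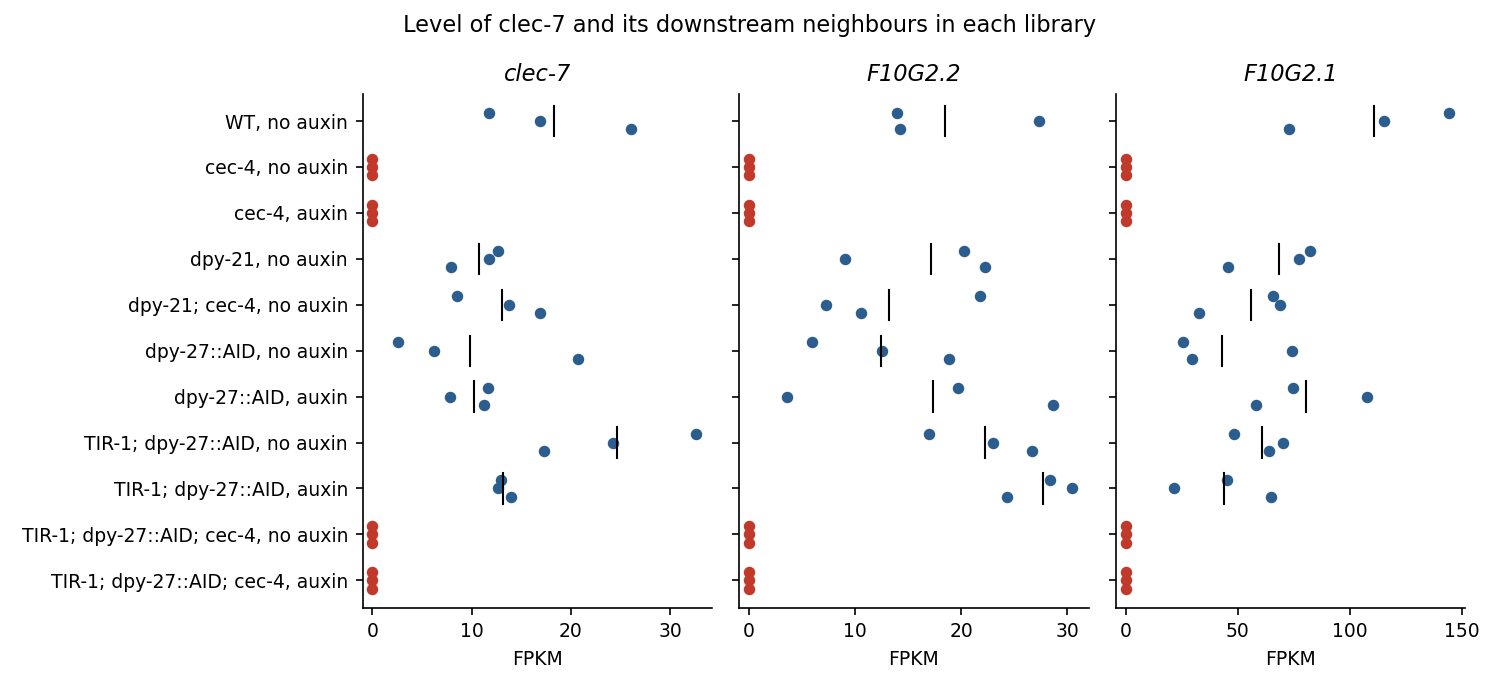
FPKM of clec-7 and of F10G2.2 and F10G2.1, the next genes on its strand, in each of 33 libraries (points; black bars, group means, drawn only for groups above 0), with the cec-4 groups without dpy-21 in red. All 12 red points are at 0 for each gene, and the lowest of the 21 blue points is 2.598 FPKM for clec-7, 3.54 FPKM for F10G2.2 and 21.7 FPKM for F10G2.1.

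The next genes on the same strand had the same pattern. Among all 21975 genes exactly 3 were listed at 0 in those 12 libraries and above 0 in the other 21: clec-7, F10G2.2 (7331168 to 7331777, median 19.8 FPKM in the 21 libraries) and F10G2.1 (7332553 to 7333424, median 65.5 FPKM). They are consecutive and span 5033 bases of chromosome V, from 7328392 to 7333424. No gene had the opposite pattern. This search was made after the values of clec-7 were seen. Of 7452 genes at 2.598 FPKM or more in each of the 21 libraries, 3 were at 0 in all 12 and 4 were at 0 in at least 3 of the 12. Upstream, F10G2.4 was listed at 0 in every library, and downstream the nuclear hormone receptor genes nhr-263 and nhr-148 had similar medians in the 12 libraries (1.28 and 3.30 FPKM) and the 21 (1.33 and 3.45 FPKM). The gene cec-4 itself lies on chromosome IV (7575718 to 7577326), and dpy-21 lies on chromosome V, 10.6 Mb from the start of clec-7. By the strain descriptions, the cec-4 strain was backcrossed to N2, the double mutant came from a cross of the cec-4 and dpy-21 strains, and TIR-1; dpy-27::AID; cec-4 descends from the same cec-4 strain. The DNA of these strains was not analysed here.

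Differences from WT were examined first in the strains without a degron, which carry cec-4, dpy-21 or both mutations. The 3 comparisons share the WT libraries. Their SEs and p-values use a spread pooled over all 11 groups, so they are too small for genes that varied more within WT. In cec-4, 1 tested clec gene was lower at an adjusted p under 0.05, which was clec-7 (adjusted p = 1.68e-09), and none was higher. In all, 0.0526% of tested genes were lower and 0.143% were higher, and 17 clec genes (16.8%) had an unadjusted p under 0.05, against 16.5% of all tested genes. The call of clec-7 held under 14 of 15 alternatives and was lost when the fit held only these 2 groups (adjusted p = 0.0831). Median-of-ratios scaling, which each such tally of alternatives includes, changed nothing and is no separate check. Apart from the test, 70 of the 101 clec genes (69.3%, against 47.2% of all tested genes) had a value below WT, with a median log2 difference of -0.46, beside 0.03 over all tested genes. Without cec-4 replicate 2 the median was -0.14 and 62 were below 0.

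In dpy-21, 3 clec genes fell and none rose, where 1.28% of all tested genes were lower and 2.38% were higher. They were clec-50, clec-65 and clec-66, all well-expressed members. In WT clec-50 was at 805, 607 and 461 FPKM, and in dpy-21 it was at 315, 257 and 335 FPKM, with no overlap (log2 difference -1.02, SE 0.24, adjusted p = 0.0187). For clec-65 the WT values were 221, 204 and 125 FPKM and the dpy-21 values 118, 85.2 and 90.4 FPKM (-0.88, SE 0.24, adjusted p = 0.0399). For clec-66 they were 103, 92.7 and 21.5 FPKM in WT and 26.6, 19.7 and 21.6 FPKM in dpy-21 (-1.39, SE 0.38, adjusted p = 0.0399). The WT libraries were not alike: replicate 3 was the lowest for each of these genes, and for clec-66 it lay within the dpy-21 range. The median log2 difference of the 101 genes was -0.15, beside 0.09 over all genes, but single libraries moved it: it was 0.06 without dpy-21 replicate 2, -0.02 without WT replicate 2 and -0.27 without dpy-21 replicate 1.

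In the double mutant dpy-21; cec-4, 6 clec genes fell and none rose, where 1.5% of all tested genes were lower and 2.8% were higher. They included the same clec-50 (301, 414 and 299 FPKM, adjusted p = 0.0390), clec-65 (94.9, 87.0 and 81.6 FPKM, adjusted p = 0.0177) and clec-66 (18.4, 24.5 and 21.2 FPKM, adjusted p = 0.0298). Also lower was clec-4, at 48.0, 35.8 and 41.7 FPKM in WT and 11.6, 14.5 and 9.26 FPKM in the double mutant (-1.83, SE 0.47, adjusted p = 0.0305). The values of clec-85, known as a target of the PMK-1 pathway, were 52.8, 52.7 and 23.5 FPKM in WT and 15.2, 20.2 and 18.5 FPKM in the double mutant (-1.17, SE 0.31, adjusted p = 0.0336). Those of clec-49, the neighbour of clec-50, which has been linked to survival on Serratia marcescens, were 51.7, 26.1 and 25.1 FPKM in WT and 12.3, 13.4 and 6.60 FPKM in the double mutant (-1.64, SE 0.46, adjusted p = 0.0420). The groups did not overlap except for clec-66. These genes were picked by a small p-value, so the lack of overlap adds no support. The median log2 difference over the 101 genes was 0.03, beside 0.06 over all genes (-0.14 to 0.03 without single libraries).

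**Figure D4:**
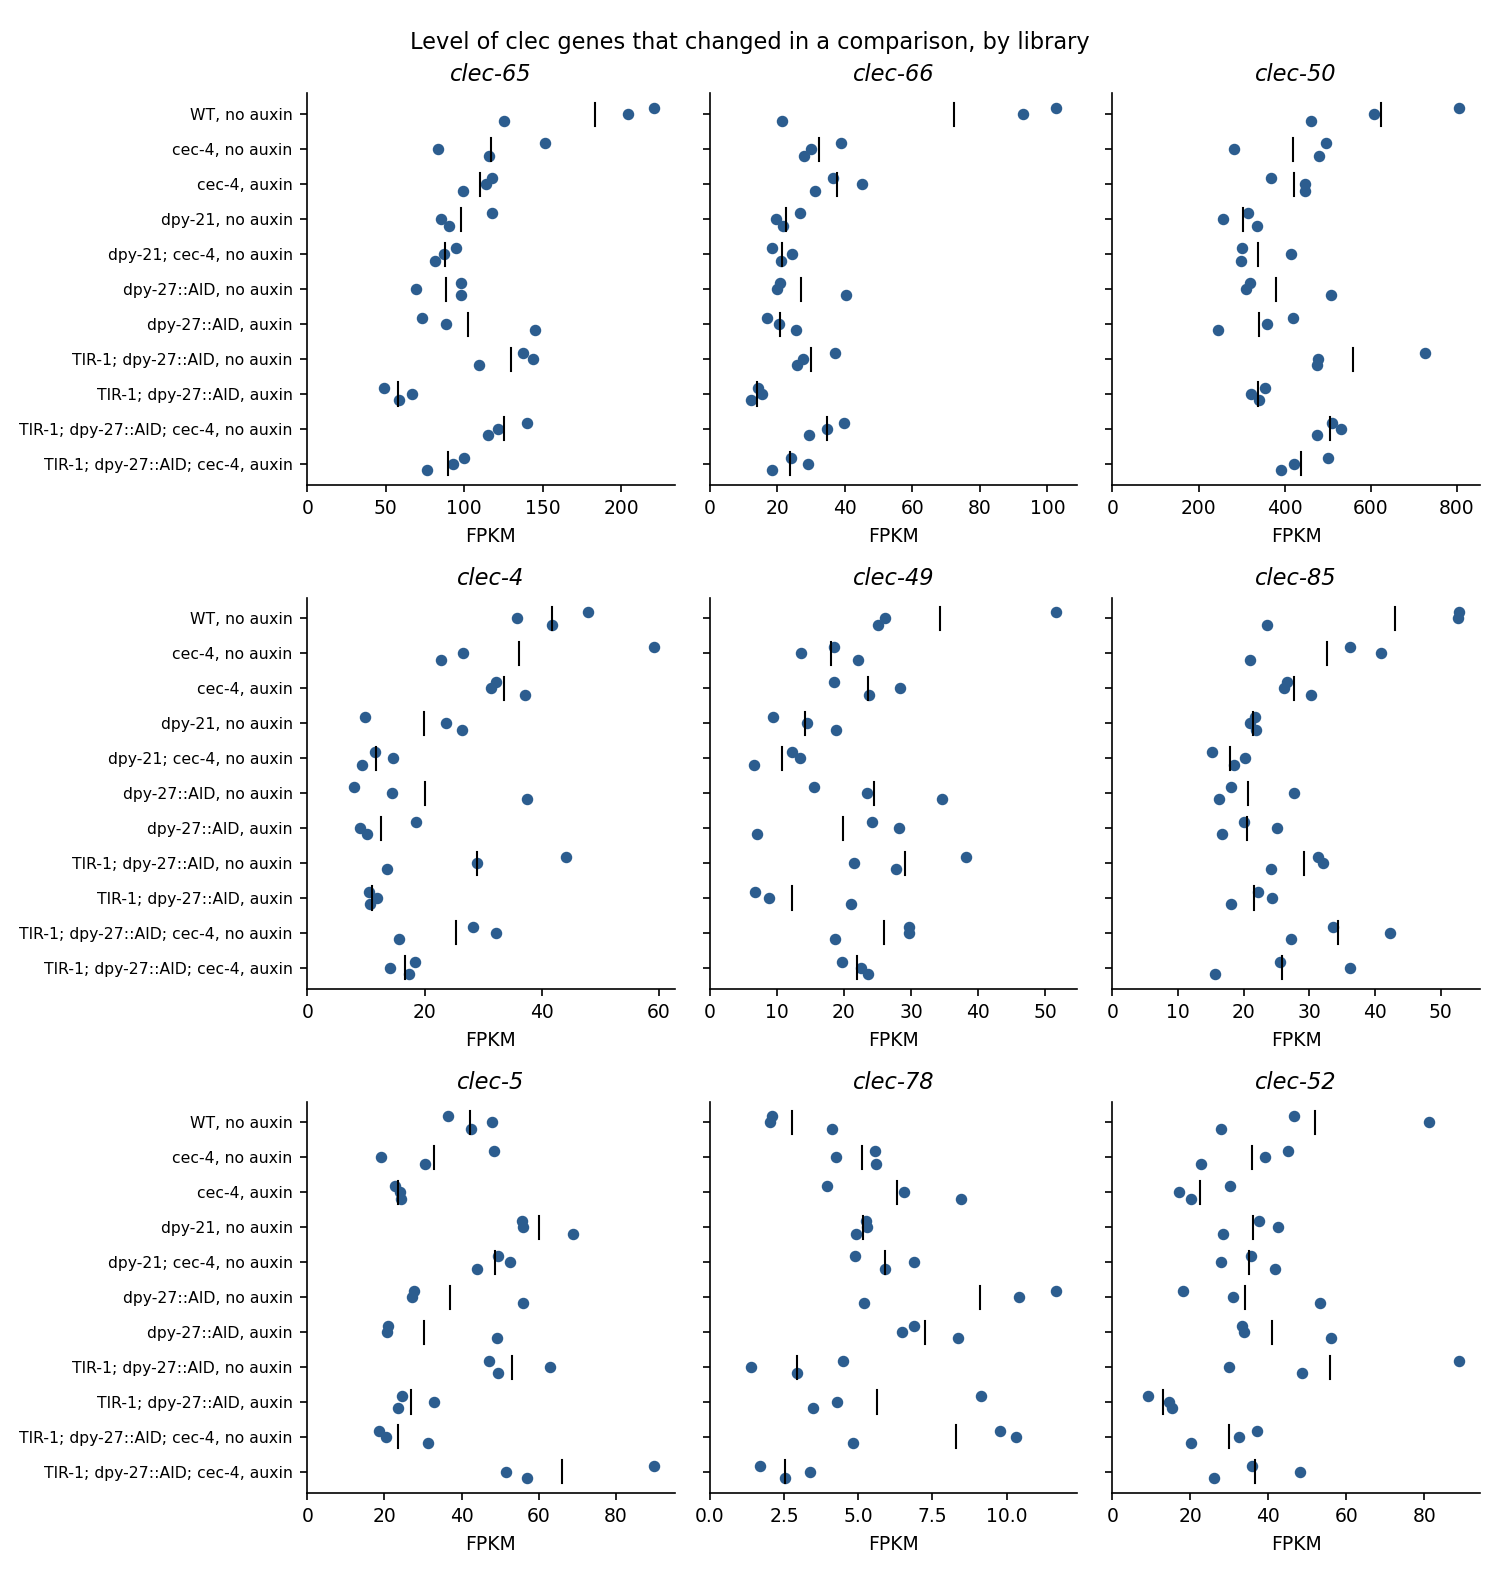
FPKM of 9 clec genes in each of 33 libraries (points; black bars, group means), by group. WT replicates 1 and 2 are the highest of all libraries for clec-65 and clec-66, and clec-5 is highest, at 89.8 FPKM, in a library of TIR-1; dpy-27::AID; cec-4 grown on auxin.

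These calls depended on single libraries, first of all WT replicates 1 and 2, the ones with the highest FPKM sums. Without replicate 1, no clec gene was called in dpy-21 or the double mutant, without replicate 2 only 1 was called in each, and without both none was called in either, while clec-7 in cec-4 was called each time. For clec-66 the log2 difference between dpy-21 and WT was 0.06 without both. The choice to leave out both was made after seeing the data. Without replicate 3, 9, 8 and 9 clec genes were called in cec-4, dpy-21 and the double mutant, where 10%, 12.3% and 13% of all tested genes were called, and 2, 3 and 2 of these clec genes were higher than WT. Without dpy-21 replicate 2 or 3, 0 or 1 was called in dpy-21, and without replicate 1, 2 or 3 of the double mutant, 1, 1 or 0 was called there. Without cec-4 replicate 1, 2 were called in cec-4. Scaling the libraries to equal FPKM sums takes the values off the median-of-ratios scale they were already on. It moved the median log2 difference of all genes to 0.36, 0.39 and 0.37 in the 3 comparisons. That of the clec genes became -0.11, 0.19 and 0.36, and 57.4% of them were then below WT in cec-4. The summed level of the 15 intestinal markers was also higher in WT (8829.6 to 11821 FPKM) than in cec-4 (4787 to 8494 FPKM), dpy-21 (6404 to 7979 FPKM) and the double mutant (7562 to 8271 FPKM), where 0, 0 and 1 of the 14 tested markers were called (mtl-2, lower in the double mutant). The summed molting genes were at 1996 to 3139 FPKM in WT and, without overlap, at 3584 to 5223 FPKM in dpy-21, and overlapped with WT in cec-4 and the double mutant. The summed muscle markers were at 7936, 6368 and 3418 FPKM in WT, against at most 5848 FPKM in the other groups. Higher sums in WT replicates 1 and 2 were thus not confined to intestinal markers. The part of any of these lists in the clec values was not tested.

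Auxin by itself was examined in the strains without TIR1. In cec-4, no clec gene was called between auxin and no auxin (0.00751% of all tested genes), with 7 at an unadjusted p under 0.05 (6.93%, against 4.3% of all tested genes), and in dpy-27::AID none was called (0% of all tested genes), with 4 at an unadjusted p under 0.05 (3.96%, against 5.06%). Under the other settings 0 or, without the auxin-treated replicate 1, 1 was called in cec-4 and 0 in dpy-27::AID. The median log2 difference was 0.03 in cec-4 and -0.06 in dpy-27::AID, beside 0.03 and 0.02 over all genes, and without single libraries it ran from -0.11 to 0.20 in cec-4 and from -0.23 to 0.20 in dpy-27::AID. The 2 fits do not show that no clec gene responds to auxin.

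In TIR-1; dpy-27::AID, where auxin depletes DPY-27, most clec genes had lower values on auxin. The untreated group had X:A scores of -0.03 to 0.09, against -0.39 to -0.25 in untreated dpy-27::AID. In untreated TIR-1; dpy-27::AID; cec-4 they were -0.36 to -0.12. The paper reports a small X derepression without auxin in both TIR1 strains, possibly from leaky TIR1, so the untreated baseline may be partly depleted. The summed FPKM of the family was 5689, 4313 and 4811 without auxin and 2970.3, 3408 and 3418 on auxin, with no overlap. Of the 101 tested genes, 83 (82.2%) had a lower value on auxin, against 52.6% of all tested genes. The median log2 difference was -0.56, beside -0.04 over all tested genes. The shift was not particular to clec genes: medians were -0.46 over 82 antimicrobial effectors and -0.37 over 12 galectins, both listed below. That of 14 intestinal markers was 0.04. Over the alternatives with the same 101 genes the share below 0 ran from 69.3%, without the auxin-treated replicate 1, to 83.2%. The summed intestinal markers overlapped between the groups (7142 to 12198 FPKM without auxin, 6223 to 7752 FPKM on auxin), and so did the summed molting genes (923 to 4634 FPKM without auxin, 3854 to 7346 FPKM on auxin). Their part in the shift was not tested.

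Of these genes, 3 passed the test, all of them lower on auxin, where 0.24% of all tested genes were lower and 0.173% were higher. The values of clec-65 were 137, 144 and 109 FPKM without auxin and 48.6, 67.0 and 58.2 FPKM on auxin, the 3 lowest of all 33 libraries (-1.17, SE 0.24, adjusted p = 0.0277). Those of clec-52, on chromosome IV, were 88.9, 29.8 and 48.7 FPKM without auxin and 9.16, 14.4 and 15.2 FPKM on auxin (-1.99, SE 0.42, adjusted p = 0.0342). Those of clec-209 were 25.8, 28.1 and 46.2 FPKM without auxin and 0, 1.86 and 4.33 FPKM on auxin (adjusted p = 0.0315). The fitted log2 difference of clec-209 ran from -3.46 to -6.22 over the settings, since it depends on the pseudocount. Its annotation has the second copy named above. At an unadjusted p under 0.05 there were 19 clec genes (18.8%, against 11.6% of all tested genes), and leaving out single libraries left 0 to 2 calls: none without the auxin-treated replicate 1 or 2, and 1 without replicate 1 or 2 of the untreated group.

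The same auxin-treated libraries were set against dpy-27::AID on auxin, which shares the tag and the treatment and has no TIR1. Only clec-209 was called, and it was lower (9.95, 20.7 and 108 FPKM in dpy-27::AID, adjusted p = 0.0186), where 0.766% of all tested genes were lower and 0.541% were higher, and 11 clec genes (10.9%, against 12.5% of all tested genes) had an unadjusted p under 0.05. The value of 108 FPKM came from replicate 3, the library with the high X:A score. Without that library the adjusted p was 0.0690 and no clec gene was called, and the same held without replicate 2 of that group or replicate 1 of TIR-1; dpy-27::AID, auxin. The difference of clec-52 was -1.64 (SE 0.42) with an adjusted p of 0.0501. The median over the 101 genes was -0.26, beside -0.01 over all genes, and it was 0.02 without TIR-1; dpy-27::AID, auxin replicate 1, -0.17 without dpy-27::AID, auxin replicate 3 and -0.15 with a pseudocount of 1, so its direction rested on 1 library.

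In TIR-1; dpy-27::AID; cec-4, the strain that also carries the cec-4 mutation, auxin moved few clec genes and in both directions. One rose (clec-5) and 3 fell (clec-78, clec-83 and clec-238), where 3.07% of all tested genes were higher and 3.33% were lower, and 12 clec genes (11.9%, against 21.1% of all tested genes) had an unadjusted p under 0.05. The values of clec-5 (WBGene00016450, chromosome III, 4881888 to 4883606) were 18.7, 20.4 and 31.2 FPKM without auxin and 89.8, 51.5 and 57.0 FPKM on auxin (1.49, SE 0.33, adjusted p = 0.00814). Those of clec-78 were 9.78, 10.3 and 4.82 FPKM without auxin and 1.69, 3.37 and 2.55 FPKM on auxin (-1.65, SE 0.46, adjusted p = 0.0324). Neither gene overlapped between the groups, which adds no support for genes picked by a small p-value. The values of clec-83 were 15.98, 37.02 and 27.3 FPKM without auxin and 0, 0 and 36.5 FPKM on auxin (adjusted p = 0.0278), so that 1 library on auxin was as high as those without it. Those of clec-238 were 1.81, 2.88 and 2.94 FPKM without auxin, and it was listed at 0 in the 3 libraries on auxin (adjusted p = 0.0459), as it was in all 3 of TIR-1; dpy-27::AID, no auxin.

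The call of clec-5 held without any single library and was lost only when the fit held these 2 groups alone (adjusted p = 0.0510), but those of clec-78, clec-83 and clec-238 did not: leaving out single libraries left 1 or 2 clec genes called. Without replicate 1 or 2 of the untreated group only clec-5 was called. The median log2 difference of the 101 genes was 0.02 (-0.14 to 0.08 without single libraries), beside -0.05 over all genes, and 48.5% were below 0. In these libraries 10 of 21 tested molting genes fell and none rose, with a summed level of 4806 to 6603 FPKM without auxin and 1063 to 2371 FPKM on auxin, and the summed hypodermal markers were at 1627 to 2014 FPKM and 412 to 793 FPKM. The part of molting stage in the clec values was not tested.

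The response to auxin differed between these strains for 2 clec genes by the interaction term, where 0.225% of all tested genes had a more positive and 1.21% a more negative response with the cec-4 mutation. In TIR-1; dpy-27::AID without that mutation the values of clec-5 were 47.1, 62.9 and 49.4 FPKM in untreated and 24.5, 32.8 and 23.4 FPKM in auxin-treated larvae, a log2 difference of -0.98 (SE 0.33) that did not pass the test on its own (adjusted p = 0.192). The interaction of clec-5 was 2.47 (SE 0.46, adjusted p = 0.00634) and was called in each of 20 alternatives. The levels of the 4 groups thus crossed. For clec-78 the values were 4.47, 1.39 and 2.94 FPKM without auxin and 9.12, 4.29 and 3.47 FPKM on auxin, a difference of 0.93 (SE 0.46, adjusted p = 0.443). Its interaction was -2.58 (SE 0.65, adjusted p = 0.0444), and it was called in only 7 of the 20 alternatives. The interaction of clec-52 was 2.29 (SE 0.60, adjusted p = 0.0526). Of the 101 genes, 75 had a positive interaction, with a median of 0.72, beside 0.03 over all genes. It was 1.09 over the antimicrobial effectors and 0.83 over the galectins listed below. In the same term 12 of 21 tested molting genes were called, all negative.

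On auxin, the strain with the cec-4 mutation had 1 clec gene higher and 1 lower than TIR-1; dpy-27::AID, where 0.887% of all tested genes were higher and 1.4% were lower, and 15 clec genes (14.9%, against 16% of all tested genes) had an unadjusted p under 0.05. The lower gene was clec-7 (adjusted p = 3.75e-09), listed at 0 in the mutant and at 12.9, 12.7 and 13.9 FPKM in the other strain, and its call held in all 14 alternatives. The higher gene was clec-5 (1.27, SE 0.33, adjusted p = 0.0382). Its call was lost without any 1 of the 6 libraries. This comparison shares its libraries with those above. The median over the 101 genes was 0.37, beside 0 over all genes, and it was 0.08 without replicate 1 of TIR-1; dpy-27::AID and 0.22 without replicate 1 of the strain with the mutation.

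**Figure D5:**
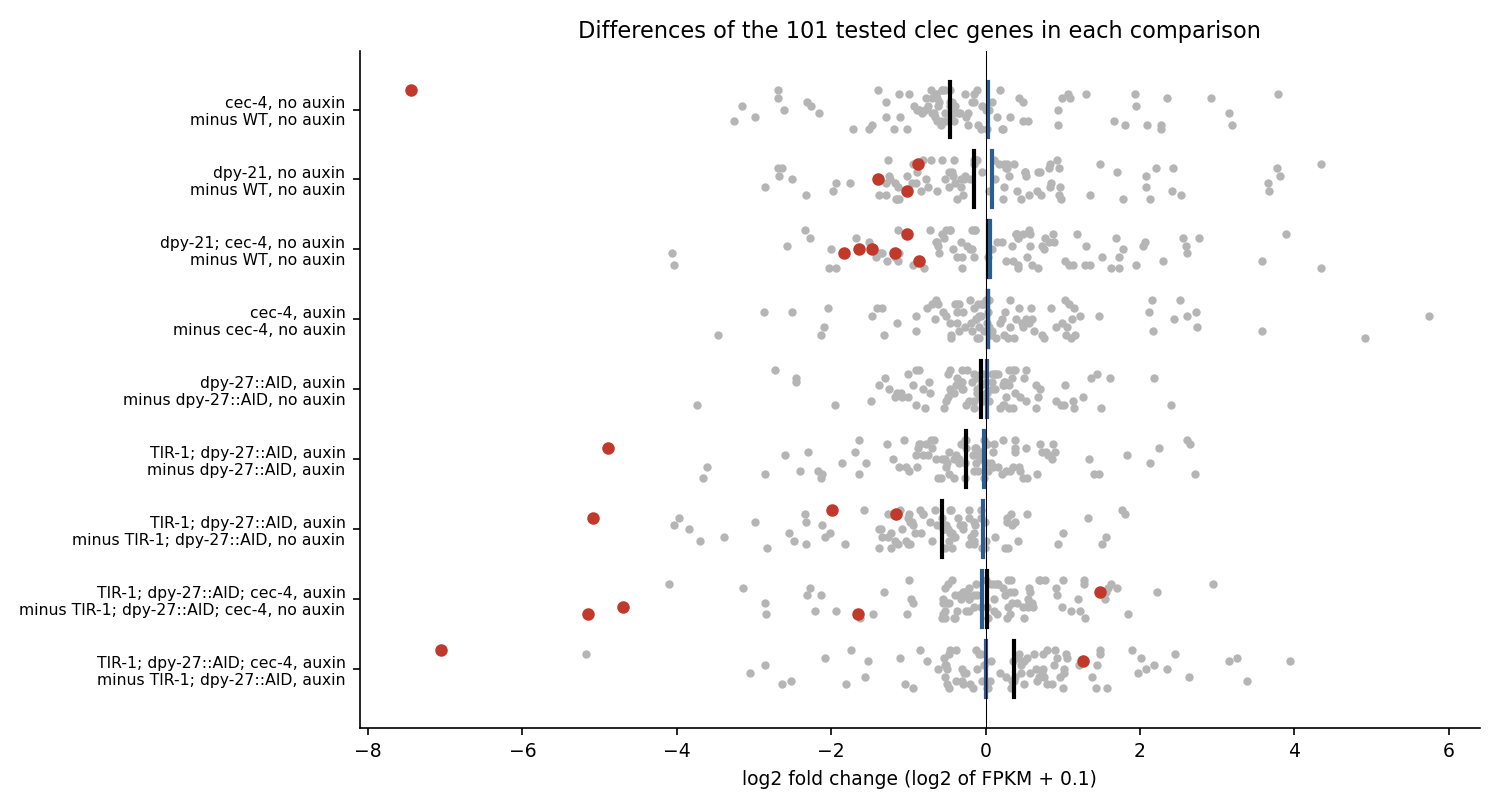
Log2 differences (log2 of FPKM + 0.1) of the 101 tested clec genes in the 9 comparisons of groups, with red points for genes called at an adjusted p under 0.05, black bars for the median of the clec genes and blue bars for the median of all 13309 tested genes. The black bar lies farthest below the blue one for auxin in TIR-1; dpy-27::AID (-0.56 and -0.04), and the red points farthest to the left are clec-7, which was listed at 0 in both cec-4 groups shown there, so that their distance from 0 depends on the pseudocount.

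Of the 3 X-linked members, clec-265 and clec-86 were tested, and neither passed a test in any comparison. In TIR-1; dpy-27::AID; cec-4, clec-265 had values of 188, 198 and 80.4 FPKM in untreated and 287, 224 and 169.6 FPKM in auxin-treated larvae (0.62, SE 0.33, adjusted p = 0.285). In dpy-21 it was at 182, 283 and 149.8 FPKM, beside 239, 164 and 119.7 FPKM in WT (0.24, SE 0.33, adjusted p = 0.743). The groups overlapped in both comparisons. For clec-86 the difference with auxin in TIR-1; dpy-27::AID; cec-4 was 1.10 (SE 0.68, adjusted p = 0.380). The third, clec-266, had a mean of 0.0345 FPKM and was listed at 0 in 26 libraries.

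Other sugar-binding and defence genes were read beside the clec genes. Counts in these lists can be set beside the shares of all tested genes called lower and higher. These were 0.0526% and 0.143% in cec-4, 1.28% and 2.38% in dpy-21, and 1.5% and 2.8% in the double mutant. With auxin they were 0.24% and 0.173% in TIR-1; dpy-27::AID, and 3.33% and 3.07% with the cec-4 mutation. Against dpy-27::AID on auxin they were 0.766% and 0.541%. Between the strains on auxin they were 1.4% and 0.887%, and for the interaction 1.21% and 0.225%. Galectins, which bind galactosides, are a separate lectin family of 12 lec genes, all tested. Calls in this and the following lists were not recomputed under the alternatives. Those against WT share its replicates 1 and 2, on which the clec calls depended. Without WT replicate 1, 0.939% of all tested genes were called in dpy-21, against 3.66% with it. In dpy-21, 3 of them fell, with lec-10 at a log2 difference of -0.999 (SE 0.18, adjusted p = 0.00387), lec-5 at -0.82 and lec-4 at -0.83, and lec-10 also fell in the double mutant. In TIR-1; dpy-27::AID, 1 fell on auxin (lec-5, -0.65). With the cec-4 mutation, 3 rose on auxin, all X-linked: lec-8 (1.80, SE 0.30, adjusted p = 0.00112), lec-9 (1.20) and lec-7 (1.81). On auxin, 4 were higher with the cec-4 mutation than without it, all autosomal: lec-5 (0.76), lec-11 (1.97), lec-6 (0.90) and lec-4 (0.77).

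Antimicrobial effectors were a list of 109 genes, of which 82 were tested: lysozymes, saposin-like proteins, caenacins, defensin-like and fungus-induced peptides and their relatives. Their median log2 difference was -0.41 in cec-4, beside -0.44 for galectins and -0.46 for clec genes. Between the strains on auxin it was 0.70, beside 0.83 for galectins and 0.37 for clec genes. Against dpy-27::AID on auxin it was 0, beside -0.06 and -0.26. In dpy-21, 2 fell and none rose, the saposin-like gene spp-1 (-1.27, adjusted p = 0.0192) and the lysozyme gene lys-7 (-2.12, adjusted p = 0.0233). In the double mutant 8 fell and none rose, with spp-1 (-1.94, adjusted p = 0.00221), spp-8 (-1.41), fipr-8 (-4.93) and lys-8 (-0.67) first by adjusted p. In TIR-1; dpy-27::AID, 2 fell on auxin, lys-7 (-2.82) and spp-18 (-1.90). With the cec-4 mutation 8 rose and 4 fell on auxin, with cnc-3 (-1.95), cnc-10 (1.76), the X-linked fipr-21 (1.12) and nlp-27 (1.47) first. Against dpy-27::AID on auxin 3 were higher, fipr-21 (1.20), cnc-8 (1.39) and abf-5 (1.53), all X-linked, and abf-4 was lower. Of the remaining comparisons 2 were lower with the cec-4 mutation on auxin (cnc-3, -2.10, and spp-17, -1.21), and cnc-3 had a negative interaction (-2.59).

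Regulators known to act upstream of defence genes were a list of 38, of which 36 were tested. The kinase gene mek-2 was lower in cec-4 (-0.91, adjusted p = 0.00509), dpy-21 (-0.90) and the double mutant (-0.69). The X-linked genes bar-1, a beta-catenin gene (0.92 and 1.13), and ets-4, a transcription factor gene (1.25 and 1.24), were higher in dpy-21 and the double mutant, and nhr-25 was higher in the double mutant (1.30). On auxin with the cec-4 mutation bar-1 (1.24) and elt-2, the X-linked gene of the main intestinal GATA factor (0.97), rose. None of the kinase genes nsy-1, sek-1 and pmk-1 of the p38 cascade was called in a comparison.

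Of the other marker lists, 3 of 21 tested molting genes rose in dpy-21, the X-linked ptr-4 (1.70) and nas-37 (3.26) and the autosomal nas-36 (2.45). In the double mutant 2 rose, ptr-4 and the autosomal fbn-1. On auxin in TIR-1; dpy-27::AID 2 autosomal genes rose, let-653 (1.48) and noah-1 (2.33). Against dpy-27::AID on auxin 1 was lower (nas-36, -2.47). Whether X-linked markers followed stage, tissue or their chromosome was not tested. On auxin 11 of 21 were lower with the cec-4 mutation than without it, let-653 first (-2.52, adjusted p = 3.90e-05). Of 14 tested intestinal markers, the X-linked pept-1 (a peptide transporter gene, 0.94) and elt-2 rose on auxin with the cec-4 mutation. The autosomal ges-1 fell there (-1.11), and pept-1 was higher against dpy-27::AID on auxin (0.998). Of 9 hypodermal markers wrt-10 (-2.11) and dpy-7 (-1.64) fell on auxin with the cec-4 mutation. Of 62 sperm genes 11 were tested, and none was called in a comparison. Their summed level was 447 FPKM in cec-4, no auxin replicate 1, and next highest in dpy-27::AID, auxin replicate 3 (136 FPKM). The germ line, neuron and muscle lists had 1 call each (prg-1 higher and sbt-1 lower in dpy-21, lev-11 lower in the double mutant).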

How the data were processed

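Poly(A) RNA of whole L3 larvae was sequenced from 33 libraries by the authors, who made directional libraries, trimmed reads with CutAdapt 2.3, checked them with FastQC 0.11.8, quantified WBcel235 transcripts with Salmon 1.9.0 and used DESeq2 1.42.0. The deposited values are FPKM per gene, and how they were computed from the Salmon output is not given in the sources used here, so counts and read totals were not used. Values were analysed as log2(FPKM + 0.1) for the 13309 genes with a mean of at least 1 FPKM, using limma 3.58.1 in R 4.3.3 and Python 3.11.15. One fit held 11 group means with a trended prior variance and no block. P-values were adjusted by Benjamini-Hochberg over all tested genes within a comparison, and genes under 0.05 were called. The procedure was tested on simulated data. A fold change on this scale understates changes of low genes, but exact 0 values can enlarge it. In TIR-1; dpy-27::AID; cec-4, clec-83 was fitted at -5.15 with auxin, between group means of 26.8 FPKM without and 12.2 FPKM on auxin. The clec genes and lists were chosen with earlier results of these data known. Named members were up to 8 called per comparison, the 10 of highest level, the next 5 by F test, the 5 with the largest and smallest SD, X-linked ones and those at the limit; clec-42 and clec-174 come from the F test. Up to 4 called genes per list and comparison were named. Alternatives were other pseudocounts (1 and 0.01), no filter or a mean of at least 5 FPKM, median-of-ratios scaling, equal FPKM sums, a replicate block, only the groups compared and leaving out each library, and, chosen after seeing the data, leaving out WT replicates 1 and 2.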

Additional observations from a re-analysis of the deposited data

Results flagged for a closer look

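The response to auxin differed between TIR-1; dpy-27::AID; cec-4 and TIR-1; dpy-27::AID for 2 clec genes by the interaction term in limma. For clec-5 the difference of the responses was 2.47 on the log2 scale (adjusted p = 0.00634). All 3 libraries were higher on auxin with the cec-4 mutation and all 3 lower on auxin without it. This separation adds no support for a gene picked by a small p-value, and the decrease without the mutation did not pass its own test. For clec-78 it was -2.58 (adjusted p = 0.0444), with all 3 libraries lower on auxin with the cec-4 mutation, while the groups without it overlapped.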

How the results depend on the processing

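Of 329 recomputed log2 differences of called clec genes, 328 kept their direction and 194 their call. The exception in direction was clec-66 in dpy-21 without WT replicates 1 and 2 (0.0647). The filters, the replicate block, median-of-ratios scaling and the fits of only the groups compared left these differences as they were. Keeping direction under those settings was thus fixed in advance. Median-of-ratios scaling also changed no call. The counts of called clec genes changed most with the spread estimate and with WT. Fitting only the groups compared gave 0 in the 3 comparisons with WT, 0 for TIR-1; dpy-27::AID against dpy-27::AID on auxin, 0 for auxin in TIR-1; dpy-27::AID, 2 for auxin in TIR-1; dpy-27::AID; cec-4 and 1 between the strains on auxin. Such a fit has fewer libraries to estimate the spread and does not pool it over all groups. With WT, tested genes at an unadjusted p under 0.05 went from 2202, 2656 and 2672 to 749, 1592 and 1655. Elsewhere the largest drop was from 673 to 489, for auxin in dpy-27::AID, and rises included 2813 to 3151 for auxin in TIR-1; dpy-27::AID; cec-4. Equal FPKM sums gave 0 in dpy-21, 3 in the double mutant (2 higher, 1 lower), 1 between the strains on auxin and 1 for the interaction. No filter gave 1 in dpy-21, 2 for auxin in TIR-1; dpy-27::AID; cec-4, 1 between the strains on auxin and 1 for the interaction. A mean of at least 5 FPKM gave 2 for TIR-1; dpy-27::AID against dpy-27::AID, and a pseudocount of 0.01 gave 1 for the interaction. In the double mutant no filter gave 4, and a pseudocount of 1 or 0.01 gave 7, of which 1 was higher; a pseudocount of 1 gave 4 in dpy-21, of which 1 was higher. With no filter the median log2 difference of the 201 clec genes then tested was 0 in the 3 comparisons with WT and 0.41 for the interaction. The cause was not tested.

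Leaving out each library gave 1 to 9 in cec-4, 0 to 8 in dpy-21, 0 to 9 in the double mutant, 0 to 1 for auxin in cec-4, 0 for auxin in dpy-27::AID, 0 to 1 for TIR-1; dpy-27::AID against dpy-27::AID, 0 to 2 for auxin in TIR-1; dpy-27::AID, 1 to 2 for auxin in TIR-1; dpy-27::AID; cec-4, 1 to 2 between the strains on auxin, 1 to 3 for the interaction and 6 to 20 over all groups. Leaving out WT replicates 1 and 2 gave 1 in cec-4, 0 in dpy-21, 0 in the double mutant and 9 over all groups, with the lone WT library assumed to vary like the other groups.

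Replicate numbers did not pair the libraries: same-numbered libraries of different groups had a mean correlation of -0.0036 in their deviations (range -0.13 to 0.17), and 9 of 33 were closest to their own number. With the replicate block, 4 clec genes were called in dpy-21, 5 in the double mutant and 1 for the interaction.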
